A study of Mus musculus with 24 samples.

Results

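Genes induced when oxygen runs short, together with the enzymes of glycolysis, were followed in jaw tissue of mouse embryos at embryonic day 13.5. The group was a list of 44 gene symbols known for these roles. Of these, 41 were measured, each through the probe set that names it alone and has the highest mean over all arrays, and all 41 passed the filter on dim probe sets that left 13850 genes in all. Gpi1 and Eno1 had no probe set under those symbols, and the 3 probe sets of Bnip3l name other genes with it. The measured members are 12 glycolytic enzymes, 26 other hypoxia-induced genes and 3 subunits of the hypoxia-inducible factors (HIF).

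The embryos came from Wnt1cre;Tgfbr2fl/+ mice mated with Tgfbr2fl/fl mice of strain C57B6, so every embryo of the cross carried at least 1 floxed allele of Tgfbr2, which encodes a receptor through which TGF-beta signals. Mutants were recognised by their cleft palate and calvarial defect, controls were littermates, and the Cre status of the controls is not given. Wnt1-Cre acts in the neural crest, which forms the jaw mesenchyme, so epithelium, muscle and vessel lining in the same dissections were not targeted. Mandible and maxilla were each cut into a distal and a proximal end, which gives 8 groups of 3 arrays (2 genotypes, 2 jaws, 2 ends) and 24 arrays. The sources used here do not give whether embryos were pooled. The p-values measure spread among these samples only, and part of it may be technical.

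Cells sense oxygen through prolyl hydroxylases that mark the alpha subunits of HIF for destruction. When oxygen is low the alpha subunits persist, pair with the partner protein encoded by Arnt and switch on genes that carry short hypoxia response elements. Their targets raise glucose uptake and glycolysis, hold pyruvate back from mitochondria, remove mitochondria and call in blood vessels. In embryos at mid-gestation this response takes part in normal growth of vessels, cartilage and bone.

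Values are log2 intensities made with RMA, which summarises the probes of a probe set into 1 value per array, and array medians lay close together, with the highest at 7.08. Arrays of the same genotype and number form a set of 4, and the 6 sets deviated as units (random block correlation 0.40). Counts of the average genotype effect are therefore given 3 ways: treating each array as a replicate, adding a random block for the set, and reducing each set to 1 value. The difference between the 3′ and 5′ Gapdh control probe sets, a measure of RNA wear or labelling, was 0.25 to 0.77 in mutant sets 1 and 3, 0.04 to 0.10 in mutant set 2 and -0.07 to 0.16 in the control sets. The X inactivation transcript Xist was low in control set 1 and mutant set 1 and high in the other sets, and in mutant sets 2 and 3 the Y-linked transcripts were high as well. Mean Y-linked levels were 8.34 to 10.07 in the mutant sets, 9.82 to 10.03 in control set 1 and 3.72 to 4.04 in control sets 2 and 3. Sex makeup thus differed between the genotypes, and its part in the differences was not tested. Hand2, a mandibular transcription factor, read 13.17 to 13.45 in control distal mandible and 7.75 to 8.74 in control distal maxilla. Tgfbr2 itself read 11.94 to 12.33 in control arrays and 12.20 to 12.68 in mutant arrays by its brightest probe set (average difference 0.31), and its other 2 probe sets differed by -0.06 and -0.18. Where these probes lie relative to the floxed segment is not given, so they check nothing about the genotype, and control and mutant here mean arrays labelled so.

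Averaged over the 4 regions, mutant minus control, 29 of the 41 members were higher in mutant arrays at an adjusted p under 0.05, none was lower and 12 did not pass. Over all genes 18.3% were called higher and 15.5% lower by the same test (limma, Benjamini-Hochberg adjusted over 13850 genes, 12 arrays per genotype). The median difference of the members was log2 0.24, beside 0.02 over all genes. With the set as a random block 15 members stayed past the threshold, beside 5.57% of all genes called higher. With 1 value per set, 3 against 3, the members called were Pygl and Vldlr, beside 0.310% of all genes. Without control set 1 the count with arrays as replicates was 18 and without control set 3 it was 17, while the genes called higher over all fell from 2529 to 1555 and 1688. RNA from whole tissue cannot tell more cells of a type from more RNA per cell.

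**Figure D1:**
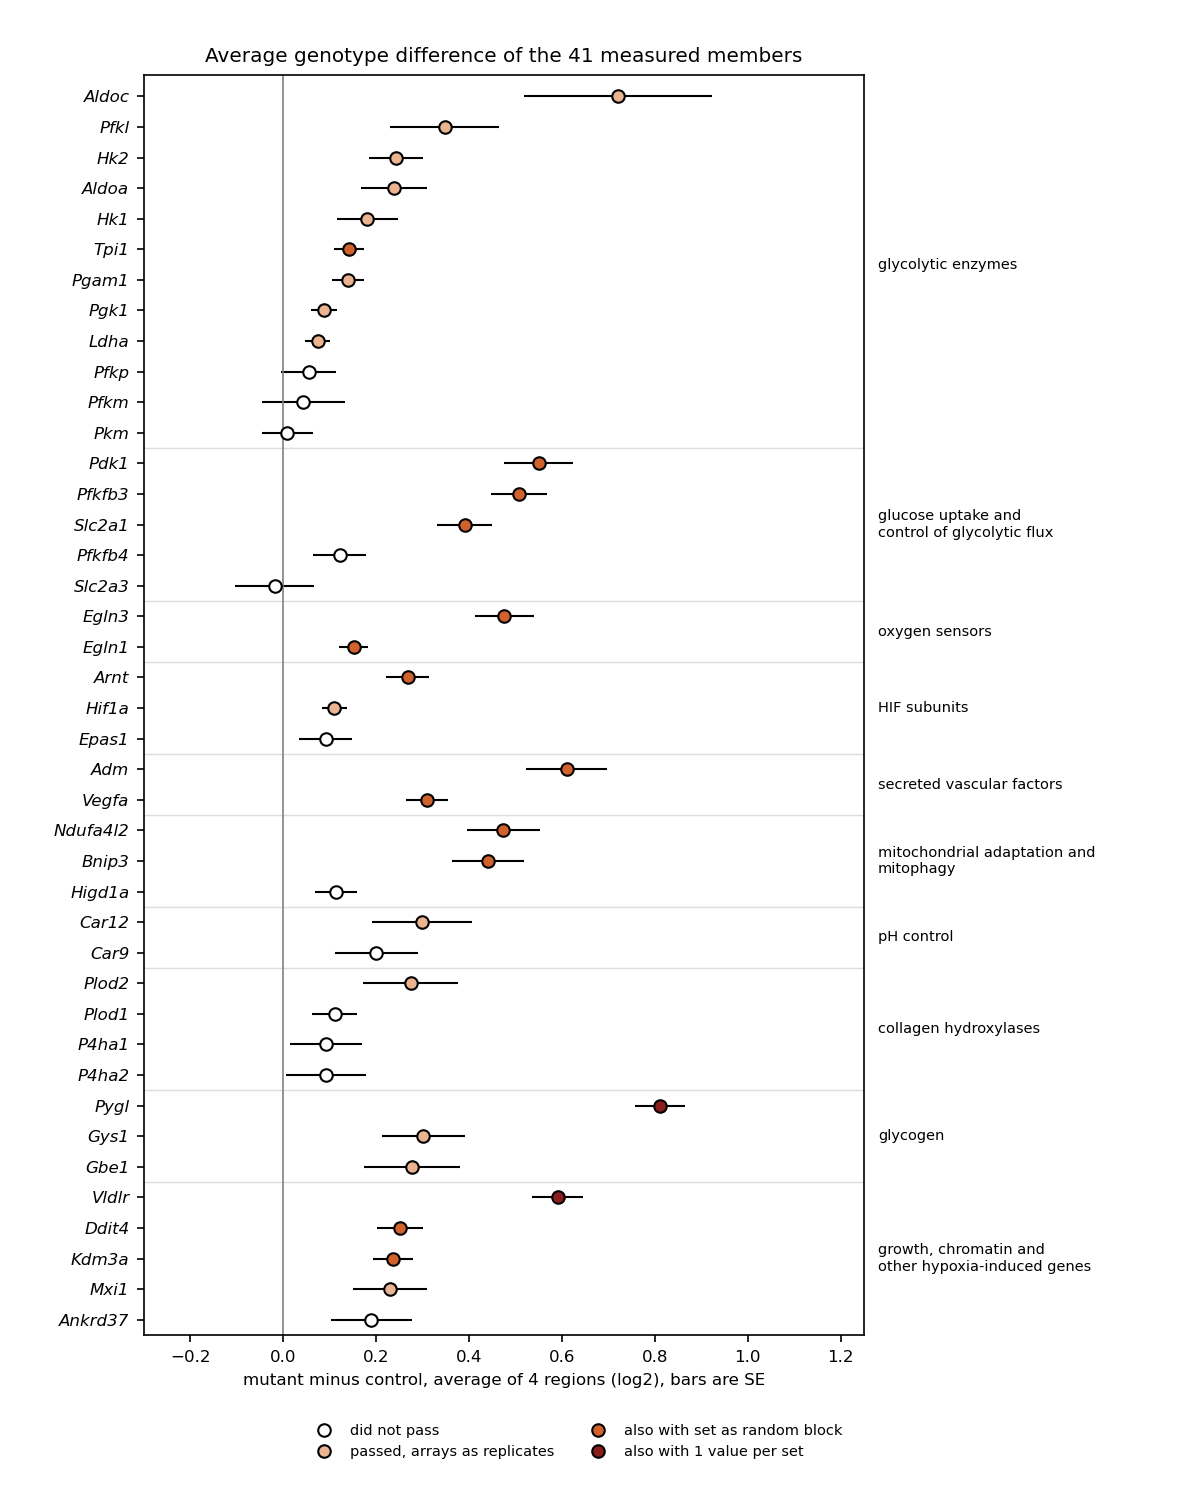
Average mutant minus control difference (log2, x axis) of each of the 41 measured members, grouped by role, with bars for the standard error over 12 arrays per genotype. Pygl stands farthest to the right at 0.81 and Slc2a3 is the only member left of 0, at -0.02. Fill colour gives the strictest treatment of the sets under which the member was called.

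Pygl, the liver form of glycogen phosphorylase, which frees glucose units from glycogen, had the largest difference. Control arrays read 9.51, 9.75 and 9.84 in the distal mandible, 9.21, 9.42 and 9.24 in the proximal mandible, 9.49, 9.67 and 9.62 in the distal maxilla and 8.69, 8.73 and 9.04 in the proximal maxilla. Mutant arrays of the same regions read 10.20, 10.33 and 10.43, then 10.23, 10.27 and 10.57, then 10.17, 10.22 and 10.06, and last 9.86, 9.82 and 9.77. In each region every mutant array lay above every control array, and the control proximal maxilla was the lowest group of all. The average difference was log2 0.81 ± 0.0537 (SE), or 1.75-fold, at adjusted p = 1.70e-08, and it held with the set as a random block (adjusted p = 4.36e-05) and with 1 value per set (adjusted p = 0.0192). The 3 mutant sets stood 0.76, 0.81 and 0.85 above the control mean, so the sets with and without the raised Gapdh difference gave like values. The other glycogen genes moved less evenly. Gys1, muscle glycogen synthase, was 0.30 ± 0.0889 higher (adjusted p = 0.0139, and 0.0888 with the random block), with 0.45 and 0.48 in mutant sets 1 and 3 and -0.03 in set 2, and a dimmer Gys1 probe set went the opposite way (-0.14). Gbe1, the glycogen branching enzyme, was 0.28 ± 0.103 higher (adjusted p = 0.0465, and 0.242 with the random block), and most of this lay in mutant set 2 (0.61, beside 0.16 and 0.06 in sets 1 and 3).

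Vldlr, the very low density lipoprotein receptor, was the other member that passed in every treatment of the sets. Its control arrays read 9.98, 10.24 and 10.10 in the distal mandible, 10.05, 10.04 and 9.97 in the proximal mandible, 10.28, 9.999 and 9.89 in the distal maxilla and 9.71, 9.75 and 9.73 in the proximal maxilla. Its mutant arrays read 10.58, 10.55 and 10.63, then 10.52, 10.61 and 10.84, then 10.73, 10.68 and 10.83, and 10.03, 10.38 and 10.47 in the same order. Mutant and control arrays did not overlap in any region. The difference was 0.59 ± 0.0549, or 1.51-fold (adjusted p = 7.95e-07, 0.000755 with the random block and 0.0387 with 1 value per set). The mutant sets stood 0.48, 0.58 and 0.71 above control, and all 6 Vldlr probe sets were higher on average, by 0.21 to 0.66.

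Among genes that direct glucose into glycolysis, 3 of 5 rose and each of the 3 was also called with the random block. Pdk1, the kinase that shuts off pyruvate dehydrogenase, read 10.82, 10.70 and 11.25 in the control distal mandible, 11.04, 10.98 and 11.34 in the proximal mandible, 10.84, 10.92 and 11.05 in the distal maxilla and 10.85, 10.90 and 10.93 in the proximal maxilla. In mutant arrays it read 11.20, 11.68 and 11.43, then 11.44, 11.94 and 11.64, then 11.32, 11.62 and 11.53, and 11.42, 11.59 and 11.38. Groups overlapped only in the distal mandible, where control set 3 lay above mutant set 1. The difference was 0.55 ± 0.0742, or 1.46-fold (adjusted p = 2.69e-05), it was largest in mutant set 2 (0.74, beside 0.38 and 0.53), and all 4 Pdk1 probe sets were higher, by 0.32 to 0.55.

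Pfkfb3, which makes the main activator of phosphofructokinase, read 8.35, 8.43 and 8.37 in the control distal mandible, 8.30, 8.11 and 8.32 in the proximal mandible, 8.35, 8.21 and 8.14 in the distal maxilla and 8.23, 8.04 and 8.23 in the proximal maxilla. The mutant values were 9.08, 8.77 and 8.99, then 8.64, 8.60 and 8.97, then 9.003, 8.46 and 8.73, and 8.70, 8.56 and 8.64. No mutant array fell within the control range of its region. The difference was 0.51 ± 0.0599, or 1.42-fold (adjusted p = 8.55e-06), with 0.60, 0.34 and 0.58 in the 3 mutant sets. Its paralog Pfkfb4, which works on the same activator, did not pass (0.12 ± 0.0575, adjusted p = 0.113).

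Slc2a1, the glucose transporter of most embryonic cells, read 12.04, 12.12 and 12.07 in the control distal mandible, 11.55, 11.50 and 11.47 in the proximal mandible, 11.94, 11.86 and 11.86 in the distal maxilla and 11.39, 11.31 and 11.49 in the proximal maxilla. Mutant arrays read 12.56, 12.38 and 12.54, then 11.79, 11.71 and 11.99, then 12.33, 12.02 and 12.13, and 12.31, 11.67 and 11.83. Distal ends were higher than proximal ends in the controls of both jaws, and in each region all mutant arrays lay above all control arrays. The difference was 0.39 ± 0.0593, or 1.31-fold (adjusted p = 7.77e-05), and its 3 probe sets agreed (0.34 to 0.39).

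Slc2a3, a transporter with a higher affinity for glucose, was the single member with a negative difference (-0.02 ± 0.0846, adjusted p = 0.882). Its control arrays read 11.86, 11.72 and 12.14 in the distal mandible, 11.93, 11.25 and 11.71 in the proximal mandible, 12.05, 12.19 and 12.59 in the distal maxilla and 11.31, 11.43 and 11.45 in the proximal maxilla. Its mutant arrays read 12.04, 11.87 and 12.13, then 11.56, 11.24 and 11.47, then 11.63, 12.07 and 12.003, and 11.995, 11.68 and 11.72. Mutant arrays stood apart, and higher, in the proximal maxilla alone, and the groups overlapped in the other regions.

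By their brightest probe sets the 4 oxygen sensors and vascular factors measured were called higher, also with the random block, beside 18.3% and 5.57% of all genes. Other probe sets of Egln1 and Vegfa went the opposite way. Egln3, a prolyl hydroxylase that HIF itself induces, read 8.76, 8.80 and 8.90 in the control distal mandible, 8.62, 8.63 and 8.85 in the proximal mandible, 9.15, 9.06 and 9.15 in the distal maxilla and 9.24, 9.28 and 9.38 in the proximal maxilla. Its mutant arrays read 9.25, 9.54 and 9.58, then 9.14, 9.37 and 9.34, then 9.36, 9.46 and 9.48, and 9.28, 9.85 and 9.90. Only the proximal maxilla of mutant set 1 fell within the control range. The difference was 0.48 ± 0.0629, or 1.39-fold (adjusted p = 2.24e-05), and its other probe set gave 0.55. Egln1, the main sensor under normal oxygen, rose by less (0.15 ± 0.0321, adjusted p = 0.00146), and its dimmer probe set went the opposite way (-0.16). With the mean of all probe sets Egln1 differed by -0.0043 and was not called (limma, adjusted p = 0.944).

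Adm encodes adrenomedullin, a peptide that widens vessels. It was dim, at 6.73, 7.06 and 7.01 in the control distal mandible, 6.90, 6.74 and 6.90 in the proximal mandible, 6.93, 7.05 and 7.09 in the distal maxilla and 6.90, 7.29 and 6.85 in the proximal maxilla. Mutant arrays read 7.40, 6.97 and 7.45, then 7.54, 7.18 and 7.41, then 7.32, 7.502 and 8.04, and 7.94, 7.77 and 8.25. Overlap was seen in the distal mandible alone, through mutant set 2, and the widest gap was in the proximal maxilla. The difference was 0.61 ± 0.0873, or 1.53-fold (adjusted p = 4.49e-05), and its other probe set gave 0.48. Vegfa, the chief growth factor of blood vessels, was 0.31 ± 0.0451 higher (adjusted p = 5.28e-05), with 9.26, 9.58 and 9.84 as lowest, median and highest control array and 9.55, 9.86 and 10.08 in mutants. A dimmer Vegfa probe set gave -0.10.

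Genes that act on mitochondria rose in 2 of 3 cases. Ndufa4l2, a mitochondrial protein that lowers the activity of respiratory complex I, read 7.89, 8.15 and 8.36 in the control distal mandible, 7.43, 7.89 and 7.29 in the proximal mandible, 7.54, 7.60 and 7.46 in the distal maxilla and 7.29, 7.39 and 7.40 in the proximal maxilla. Mutant arrays read 8.97, 8.97 and 8.74, then 7.72, 8.39 and 8.09, then 8.20, 8.07 and 7.91, and 7.504, 7.39 and 7.43. Both distal ends were fully separated by genotype, whereas the proximal maxilla overlapped and its means differed by little. The average difference was 0.47 ± 0.0777, or 1.39-fold (adjusted p = 0.000157). Bnip3, a receptor that marks mitochondria for removal, read 11.43, 11.67 and 11.66 in the control distal mandible, 11.44, 11.77 and 11.67 in the proximal mandible, 11.46, 11.31 and 11.47 in the distal maxilla and 11.56, 11.36 and 11.67 in the proximal maxilla. Its mutant arrays read 11.87, 12.17 and 12.03, then 11.94, 12.22 and 12.30, then 12.28, 11.69 and 11.57, and 12.11, 11.81 and 11.75. The genotypes were separated in every region, by the least in the maxilla of mutant sets 2 and 3. The difference was 0.44 ± 0.0776, or 1.36-fold (adjusted p = 0.000307). Higd1a, a small inner membrane protein, did not pass (0.11 ± 0.0448, adjusted p = 0.0584).

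**Figure D2:**
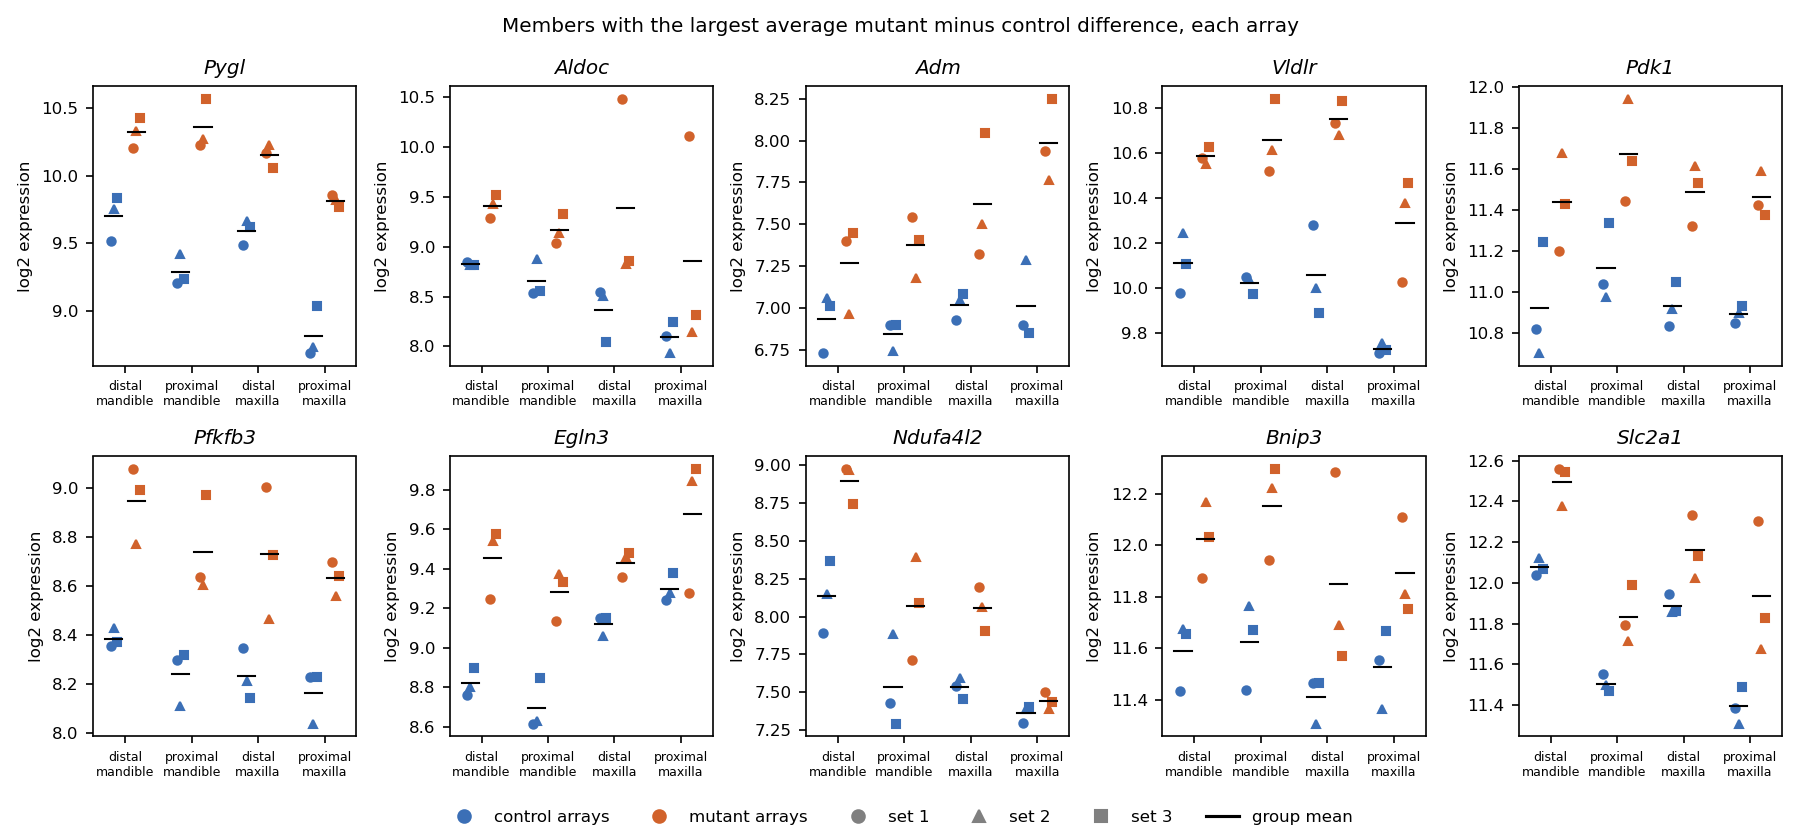
Log2 expression (y axis) on each array for the 10 members with the largest average difference, by region (x axis), with control arrays in blue, mutant arrays in orange, a marker shape for each set and a line at each group mean. Pygl, Vldlr, Pfkfb3, Bnip3 and Slc2a1 show no overlap between genotypes in any region, and Aldoc in the maxilla is carried by the circle of mutant set 1, at 10.49 and 10.11.

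Glycolytic enzymes had a smaller median difference than the other hypoxia-induced members. Of 12 measured, 9 were higher and 3 did not pass, with a median difference of 0.14, and Tpi1 was the enzyme called with the random block. Of the 26 other hypoxia-induced members 18 were higher, with a median of 0.27, and 13 were called with the random block. The medians lay 0.13 apart, beside a standard deviation of 0.0373 of that gap over the 3 mutant sets. The gap was not tested, because the members were chosen with results known, and it shrank to 0.068 when all probe sets of a gene were averaged. In mutant sets 1, 2 and 3 the enzyme medians were 0.24, 0.05 and 0.15 and those of the other members 0.39, 0.23 and 0.26.

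Aldoc, an aldolase, had the largest difference of the enzymes (0.72 ± 0.202, or 1.65-fold, adjusted p = 0.0102) and also the largest error. Its control arrays read 8.85, 8.82 and 8.82 in the distal mandible, 8.54, 8.88 and 8.56 in the proximal mandible, 8.55, 8.51 and 8.04 in the distal maxilla and 8.11, 7.93 and 8.24 in the proximal maxilla. Its mutant arrays read 9.29, 9.43 and 9.52, then 9.04, 9.14 and 9.33, then 10.49, 8.83 and 8.86, and 10.11, 8.15 and 8.32. The maxilla of mutant set 1 stood more than 1 log2 unit above every other array of its jaw, and the mandible was separated by genotype in all sets. Mutant set 1 stood 1.24 above control, and sets 2 and 3 stood 0.40 and 0.52 above it. The distal maxilla of mutant set 1 also had a mean cartilage marker level of 11.51, beside 7.68 to 8.07 in the control distal maxilla and 7.82 to 7.84 in the other mutant sets, and a mean epithelial marker level of 11.32 beside 10.36 to 10.68. In the proximal maxilla of mutant set 1 the cartilage level was 10.98, beside 10.22 to 11.33 in controls and 9.99 and 11.01 in the other mutant sets. The epithelial level there was 10.62, beside 9.29 to 9.61 in controls and 9.74 and 9.72 in the other mutant sets. The part of these tissues in the Aldoc values was not tested.

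Tpi1, Pgam1, Pgk1 and Ldha rose by small amounts, the least in mutant set 2. Tpi1, triose phosphate isomerase, was 0.14 ± 0.0317 higher, Pgam1, phosphoglycerate mutase, 0.14 ± 0.0344, Pgk1, phosphoglycerate kinase, 0.09 ± 0.0283, and Ldha, which turns pyruvate into lactate, 0.07 ± 0.0274 (adjusted p = 0.00224, 0.00436, 0.0236 and 0.0448). With the random block the limma adjusted p was 0.0486, 0.107, 0.235 and 0.301 in the same order, so Tpi1 alone was called. In each of these 4 the means of all 3 mutant sets lay above those of all 3 control sets, as in 16.2% of all genes. Pgk1 lies on the X chromosome, and the part of sex makeup in its value was not tested. Ldha ranged from 13.35 to 13.60 in control and from 13.42 to 13.61 in mutant arrays, so single arrays overlapped. The size of the difference varied with the probe set. The dimmer probe sets gave 0.20 and 0.20 for Pgk1 and 0.10 and 0.27 for Tpi1, while Pgam1 and Ldha had 1 probe set each.

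With arrays as replicates the hexokinases and aldolases measured were all called higher, and 1 of 3 phosphofructokinases was. With the random block none of them was called. The limma adjusted p was then 0.0795 for Hk2, 0.261 for Hk1, 0.144 for Pfkl, 0.109 for Aldoa and 0.166 for Aldoc. Of the hexokinases, which trap glucose in the cell, Hk2 was 0.24 ± 0.0586 higher and Hk1 0.18 ± 0.0657 higher, and a dimmer Hk1 probe set gave -0.33. Of the phosphofructokinases, which catalyse the committed step, Pfkl was 0.35 ± 0.118 higher (adjusted p = 0.0291), while Pfkm (0.04 ± 0.0893) and Pfkp (0.05 ± 0.0590) did not pass. Aldoa, the main aldolase of most tissues, was 0.24 ± 0.0714 higher (adjusted p = 0.0153). Pkm, pyruvate kinase, did not pass (0.01 ± 0.0546, adjusted p = 0.920). Differences between paralogs were not tested. Pfkl stood 0.71 and 0.37 above control in mutant sets 1 and 3 and -0.04 in set 2, and Pfkm 0.27, 0.15 and -0.30.

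This split between sets was not particular to the members. In 11 of the 41 members mutant sets 1 and 3 lay above the control mean and mutant set 2 below it. That is near the share of 23.9% over all genes. The 11 were Pfkl, Pfkm, Aldoa, Pkm, Slc2a3, Pfkfb4, Car9, Car12, P4ha1, P4ha2 and Gys1. Mutant sets 1 and 3 are those with the raised Gapdh difference. With that difference as a covariate 20 members were higher and Pfkm was lower (-0.25), beside 2426 genes higher and 3419 lower of 13850. With mutant set 2 alone against all controls 20 were higher, and Pfkm (-0.30) and Pkm (-0.16) were lower, at adjusted p under 0.05, beside 2678 genes higher and 3919 lower. The opposite order, with mutant set 2 well above both others, was seen in Gbe1, in Epas1 (0.24, beside 0.01 and 0.02) and in Ankrd37, an ankyrin repeat protein (0.46, beside 0.05 and 0.05), of which neither Epas1 nor Ankrd37 passed on average (Ankrd37 0.19 ± 0.0873, adjusted p = 0.102).

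**Figure D3:**
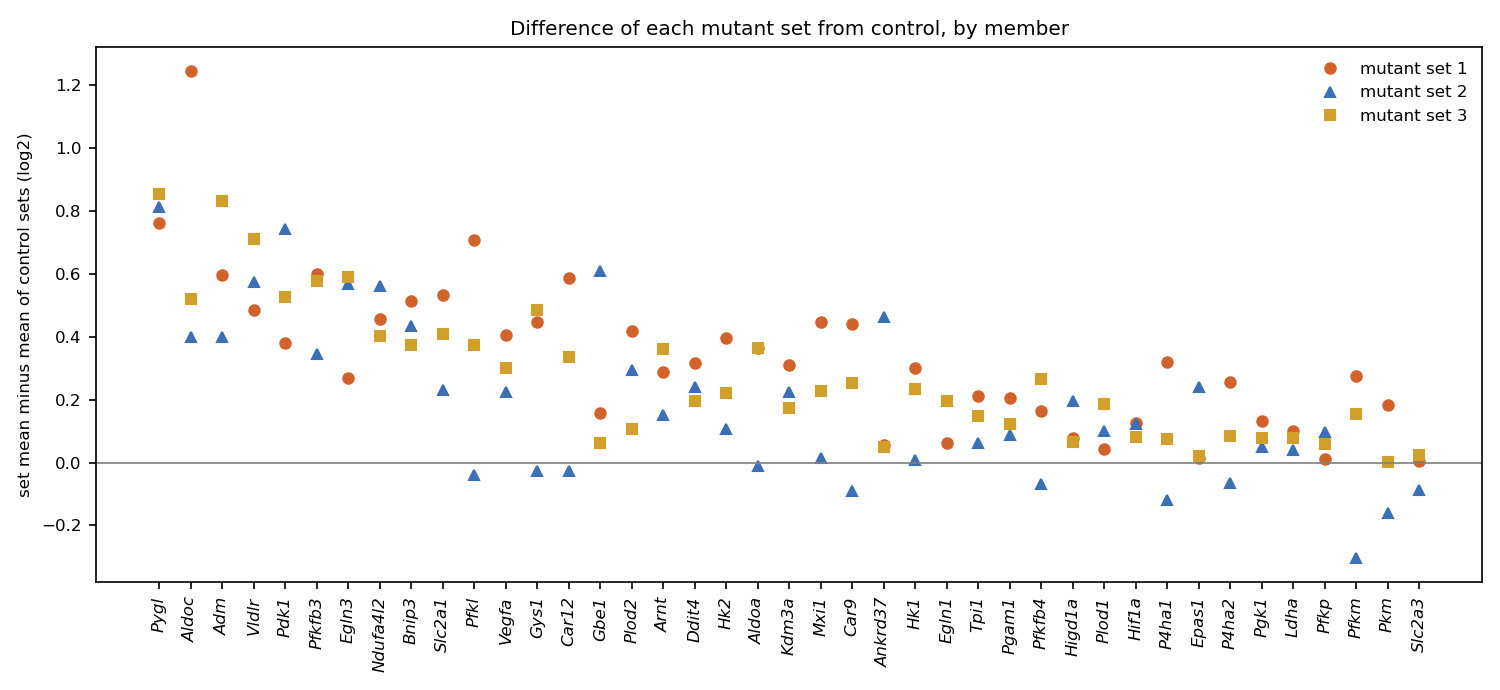
Mean over 4 regions of each mutant set minus the mean of the 3 control sets (log2, y axis) for each member (x axis, ordered by average difference). Pygl, Vldlr, Ndufa4l2 and Bnip3 keep the 3 sets close together and above 0, while Pfkl, Car12, Gys1 and Pfkm have mutant set 2 at -0.03 to -0.30 and the other sets above 0.

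Of the HIF subunits, Arnt, the shared partner, was 0.27 ± 0.0462 higher (adjusted p = 0.000259, and 0.0209 with the random block). Its control arrays ran from 10.48 to 10.74 with a median of 10.67 and its mutant arrays from 10.75 to 11.16 with a median of 10.91, so all 12 mutant arrays exceeded all 12 control arrays. Hif1a, the main alpha subunit, was 0.11 ± 0.0269 higher (adjusted p = 0.00443, and 0.0877 with the random block), and Epas1, another alpha subunit, did not pass (0.09 ± 0.0569, adjusted p = 0.226). Probe sets disagreed for these genes. A dimmer Hif1a probe set gave -0.47 (-0.87, 0.49 and -1.04 in the 3 mutant sets) and another gave 0.31. The dimmer Arnt probe sets gave 0.19, -0.22, -0.01 and -0.12. With the mean of all probe sets Arnt differed by 0.024 and was not called (limma, adjusted p = 0.556). HIF alpha proteins are set mainly by breakdown of the protein, which these arrays do not measure.

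The remaining members act on acidity, collagen, growth and chromatin. Ddit4, an inhibitor of the growth kinase mTOR, was 0.25 ± 0.0498 higher, Kdm3a, a histone demethylase, 0.24 ± 0.0424, and Mxi1, a MYC antagonist, 0.23 ± 0.0794 (adjusted p = 0.000849, 0.000367 and 0.0324). Kdm3a was separated by genotype in all regions, whereas Mxi1 rested on mutant sets 1 and 3 (0.45 and 0.23, beside 0.01 in set 2), had its highest values in the maxilla of mutant set 1 had a dimmer probe set at -0.41 and was not called with the random block (adjusted p = 0.217). Of the carbonic anhydrases, which move acid out of cells, Car12 was 0.30 ± 0.109 higher (adjusted p = 0.0409, and 0.203 with the random block) and Car9 did not pass (0.20 ± 0.0902, adjusted p = 0.0947). Among the collagen hydroxylases 1 of 4 was called with arrays as replicates and none with the random block. That was Plod2, a lysyl hydroxylase (0.27 ± 0.103, adjusted p = 0.0478, and 0.349 with the random block), while Plod1 (0.11), P4ha1 (0.09) and P4ha2 (0.09) did not pass. The dimmer P4ha1 probe set gave -0.72, with -1.03, -0.01 and -1.13 in the mutant sets, so P4ha1 has no settled direction here.

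In 7 members every mutant array lay above every control array in each of the 4 regions, a pattern held by 2.32% of all genes. They were Pygl, Vldlr, Pfkfb3, Bnip3, Slc2a1, Arnt and Kdm3a. In 24 members the means of all 3 mutant sets exceeded the means of all 3 control sets, beside 16.2% of all genes. These 24 include 7 of the 12 enzymes and 15 of the 26 other hypoxia-induced members.

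Promoters are shown for the members called in 3 or 4 single regions, Pygl, Vldlr, Pfkfb3 and Pdk1, and for the pair with the most hypoxia response element cores, Bnip3 and Ldha. Each is the 250 bases before a RefSeq transcript start, read 5′ to 3′ along the gene (GRCm38.p6). Capitals mark the cores ACGTG and GCGTG on either strand (CACGT and CACGC on the strand shown), and the palindrome CACGTG counts as 2 overlapping matches.
Pygl, chr12:70227684-70227933, minus strand: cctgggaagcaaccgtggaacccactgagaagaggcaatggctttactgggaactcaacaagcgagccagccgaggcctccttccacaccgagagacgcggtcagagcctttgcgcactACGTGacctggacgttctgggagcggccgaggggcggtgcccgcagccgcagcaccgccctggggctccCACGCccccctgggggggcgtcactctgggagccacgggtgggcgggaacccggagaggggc
Vldlr, chr19:27216234-27216483, plus strand: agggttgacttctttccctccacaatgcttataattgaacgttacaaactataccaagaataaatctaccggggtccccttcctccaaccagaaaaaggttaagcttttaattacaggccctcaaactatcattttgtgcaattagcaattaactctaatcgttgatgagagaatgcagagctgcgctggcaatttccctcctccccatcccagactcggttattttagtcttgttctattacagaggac
Pfkfb3, chr2:11502091-11502340, minus strand: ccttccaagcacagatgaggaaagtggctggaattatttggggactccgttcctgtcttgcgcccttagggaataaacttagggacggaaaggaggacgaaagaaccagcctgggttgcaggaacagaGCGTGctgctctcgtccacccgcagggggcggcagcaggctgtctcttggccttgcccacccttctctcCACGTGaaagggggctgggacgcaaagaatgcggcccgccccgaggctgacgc
Pdk1, chr2:71872974-71873223, plus strand: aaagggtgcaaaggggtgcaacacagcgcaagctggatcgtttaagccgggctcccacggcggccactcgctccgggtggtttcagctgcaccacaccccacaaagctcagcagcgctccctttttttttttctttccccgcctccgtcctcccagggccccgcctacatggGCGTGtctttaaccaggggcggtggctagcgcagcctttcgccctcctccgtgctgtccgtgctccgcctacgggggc
Bnip3, chr7:138909507-138909756, minus strand: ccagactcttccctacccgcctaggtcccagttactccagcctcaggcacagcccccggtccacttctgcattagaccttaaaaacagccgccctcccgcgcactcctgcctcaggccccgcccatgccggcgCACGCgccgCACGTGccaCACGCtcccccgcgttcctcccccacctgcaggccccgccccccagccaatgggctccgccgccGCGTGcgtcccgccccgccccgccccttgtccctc
Ldha, chr7:46845554-46845803, plus strand: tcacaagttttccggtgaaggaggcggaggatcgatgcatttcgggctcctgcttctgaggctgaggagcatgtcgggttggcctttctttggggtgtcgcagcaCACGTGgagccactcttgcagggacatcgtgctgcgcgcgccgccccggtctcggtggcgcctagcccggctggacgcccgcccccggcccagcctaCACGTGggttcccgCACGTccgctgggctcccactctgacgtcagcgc

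Matches numbered 2 in Pygl, 3 in Pfkfb3, 1 in Pdk1 and 5 each in Bnip3 and Ldha, and Vldlr had none in either of its 2 windows. RefSeq windows were found for 37 of the 41 members. Ndufa4l2, Plod2, Epas1 and Slc2a3 are named only. A core was present in at least 1 window of 32 of these 37 members (86.5%), beside 11226 of 27025 genes (41.5%). It was present in 22 of 27 members called higher (81.5%) and in 10 of 10 not called, and in 11 of 12 enzymes and 19 of 23 other hypoxia-induced members. Ldha and Bnip3 thus had equal numbers of cores and differences of 0.07 and 0.44. Base composition was not matched between members and all genes, and a match of 5 bases is a description of letters.

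Within single regions fewer members passed, and every member that did was higher in mutants. In the distal mandible 5 members were called, beside 0.895% of all genes. They were Ndufa4l2 (0.76 ± 0.155, adjusted p = 0.0298), Egln3 (0.63 ± 0.126), Pygl (0.62 ± 0.107), Pfkfb3 (0.56 ± 0.120) and Vldlr (0.48 ± 0.110). With the set as a random block 3 were called, without Ndufa4l2 and Vldlr. The count was 0 without any single control set or without mutant set 3, 2 without mutant set 1 and 14 without mutant set 2.

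In the proximal mandible 6 were called, beside 5.36% of all genes. Pygl led (1.07 ± 0.107, or 2.09-fold, adjusted p = 1.70e-05), followed by Vldlr (0.64 ± 0.110), Egln3 (0.58 ± 0.126), Pdk1 (0.56 ± 0.148), Pfkfb3 (0.50 ± 0.120) and Vegfa (0.40 ± 0.0902). The count was 2 without control set 1 or mutant set 3, 3 without control set 2 or 3, and 11 without mutant set 2.

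In the distal maxilla 9 were called, beside 7.08% of all genes. The largest were Vldlr (0.69 ± 0.110, adjusted p = 0.00214), Adm (0.60 ± 0.175), Pygl (0.56 ± 0.107), Pdk1 (0.56 ± 0.148) and Ndufa4l2 (0.52 ± 0.155). Pfkfb3, Vegfa, Ddit4 and Kdm3a made up the rest. The count was 2 when all probe sets of a gene were averaged and 5 with no filter on dim probe sets. It was 3, 2 and 1 without control sets 1, 2 and 3, 4 without mutant set 3 and 20 without mutant set 2.

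In the proximal maxilla 7 were called, beside 5.70% of all genes. Pygl led again (1.00 ± 0.107, or 2.00-fold, adjusted p = 5.85e-05), and Adm came close (0.97 ± 0.175, or 1.96-fold, adjusted p = 0.00436). Pdk1 (0.57 ± 0.148), Vldlr (0.56 ± 0.110), Slc2a1 (0.54 ± 0.119), Pfkfb3 and Kdm3a followed. The count was 2, 3 and 1 without control sets 1, 2 and 3 and 14 without mutant set 2. No glycolytic enzyme passed in a single region. In the distal mandible 7 of 12 had an unadjusted p under 0.05, beside 2086 of 13850 genes. The number was 3 in the proximal mandible (2708 genes), 4 in the distal maxilla (3120 genes) and 0 in the proximal maxilla (2970 genes). Pygl, Vldlr and Pfkfb3 passed in all 4 regions and Pdk1 in 3. The count over all genes moved with the sets as well: leaving out 1 set, it ran from 2 to 2912 in the distal mandible (124 with all sets), 60 to 1826 in the proximal mandible (742), 58 to 3414 in the distal maxilla (980) and 84 to 2617 in the proximal maxilla (789).

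The genotype effect itself was compared between jaws and between ends. No member passed in either comparison (limma, adjusted over 13850 genes), as 0% of all genes did, and the count stayed at 0 under every alternative run. An unadjusted p under 0.05 was seen for 2 members between the jaws and 2 between the ends, beside 480 and 430 of 13850 genes. The smallest belonged to Pygl, whose genotype effect was smaller at the distal than at the proximal ends (-0.44 ± 0.107, adjusted p = 0.803). Ndufa4l2 (0.34 ± 0.155) and Egln3 (0.26 ± 0.126) had larger effects in the mandible at unadjusted p = 0.0392 and 0.0493, and neither passed.

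Regions were also compared within the control arrays. In these comparisons 34 to 39 of the 41 members did not pass, so the counts describe single members and not the group. In the control mandible 7 members were higher distally and none lower with arrays as replicates, beside 13.3% of all genes called in either direction. They were Car12 (0.79 ± 0.217, adjusted p = 0.0190), Ndufa4l2 (0.60 ± 0.155), Slc2a1 (0.57 ± 0.119), Pygl (0.41 ± 0.107), Ddit4 (0.41 ± 0.0996), Pfkfb4 and Hif1a (0.37 ± 0.0538, adjusted p = 8.49e-05). Slc2a1 read 12.04, 12.12 and 12.07 distally and 11.55, 11.50 and 11.47 proximally, so that the ends were fully separated. Tissue makeup differed as well: 15 of 16 skeletal muscle markers were lower and 6 of 12 epithelial markers higher distally, and their part in these values was not tested. With the random block, which takes the pairing into account, 7 were higher and P4ha1 was lower distally (-0.43). The count of members was 3 without control set 1 and 2 without control set 2 or 3.

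In the control maxilla 4 members were higher distally and none lower, beside 6.06% of all genes. Car12 (0.92 ± 0.217, adjusted p = 0.0137), Slc2a3 (0.88 ± 0.169, adjusted p = 0.00301), Pygl (0.77 ± 0.107, adjusted p = 0.000175) and Slc2a1 (0.49 ± 0.119, adjusted p = 0.0151) were the ones. Slc2a3 read 12.05, 12.19 and 12.59 distally and 11.31, 11.43 and 11.45 proximally. Between these ends 8 of 12 epithelial markers were higher distally, 9 of 12 cartilage markers lower and 8 of 11 neuronal markers lower. With the replicate number as a fixed block, which pairs the ends, 9 members were called, 5 higher and 4 lower distally. With the random block 5 were higher, and Vegfa (-0.22) and P4ha2 (-0.50) were lower. Without control sets 1, 2 and 3 the counts were 2, 2 and 1.

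**Figure D4:**
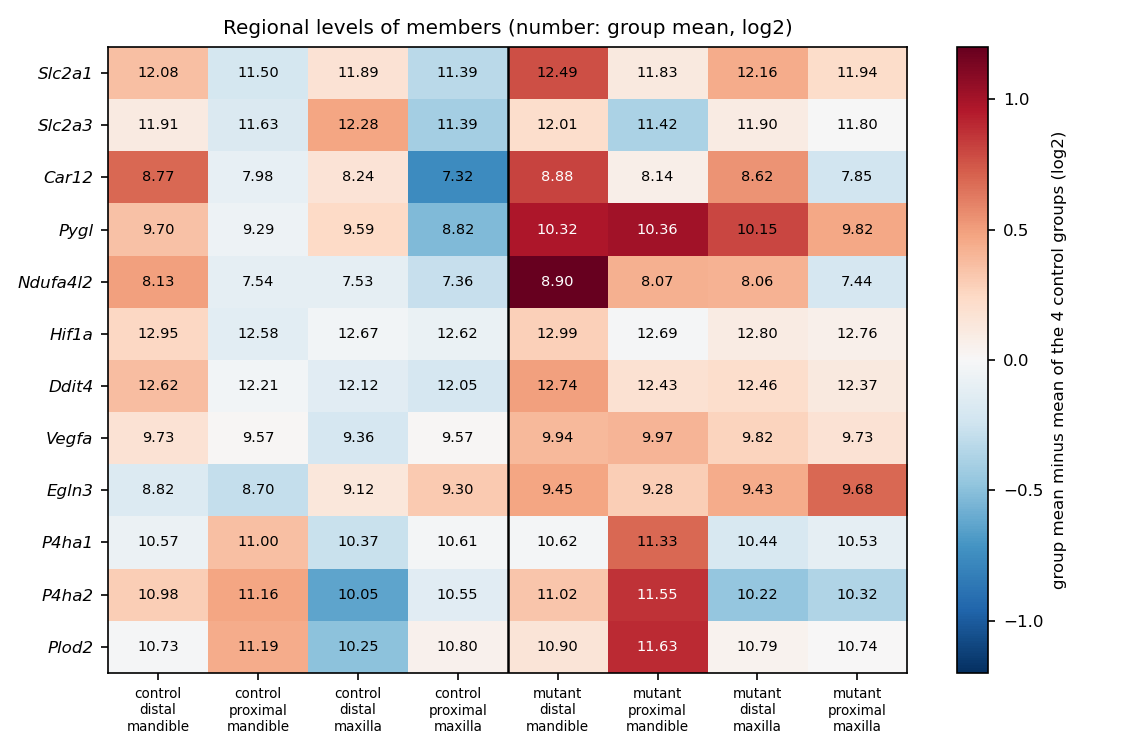
Group means (numbers, log2) of 12 members in the 8 groups, coloured by the difference from the mean of the 4 control groups. Car12 and Slc2a1 are higher at distal than proximal ends in both jaws and genotypes, and P4ha1, P4ha2 and Plod2 peak in the mutant proximal mandible at 11.33, 11.55 and 11.63.

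Between the jaws, 5 members were higher in the control distal mandible than in the control distal maxilla and none was lower, beside 9.21% of all genes. P4ha2, an alpha subunit of the collagen prolyl hydroxylase, differed most (0.93 ± 0.171, adjusted p = 0.00121), with 10.74, 11.20 and 11.005 on mandible arrays against 10.20, 9.91 and 10.05 on maxilla arrays. Ndufa4l2 (0.60 ± 0.155), Ddit4 (0.50 ± 0.0996), Vegfa (0.37 ± 0.0902) and Hif1a (0.28 ± 0.0538) followed. In the same comparison 10 of 12 cartilage markers were higher and 15 of 16 skeletal muscle markers lower in the mandible, and their part was not tested. With the random block 9 members were higher and Egln3 was lower in the mandible (-0.30). With the replicate number as a fixed block 11 members were called, 9 higher and 2 lower, and without control set 2 or 3 the counts were 3 and 2. At the proximal ends 2 members were called, beside 2.61% of all genes. Pygl was higher in the mandible (0.47 ± 0.107, adjusted p = 0.0207) and Egln3 higher in the maxilla (-0.60 ± 0.126, adjusted p = 0.0119), and neither passed when any control set was left out. Of 11 neuronal markers 7 were lower and of 12 epithelial markers 4 were higher in the proximal mandible.

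Mutant jaws were compared in the same way. In the mutant mandible 6 members were higher distally and 3 lower, beside 15.9% of all genes. Ndufa4l2 (0.83 ± 0.155, adjusted p = 0.000885), Car12 (0.74 ± 0.217), Slc2a1 (0.66 ± 0.119), Slc2a3 (0.59 ± 0.169) and Ddit4 (0.31 ± 0.0996) were the largest of the 6, with Hif1a the last. The collagen hydroxylase genes Plod2 (-0.73 ± 0.206), P4ha1 (-0.71 ± 0.155, adjusted p = 0.00318) and P4ha2 (-0.54 ± 0.171) were lower distally. P4ha1 read 10.84, 10.44 and 10.57 distally and 11.41, 11.13 and 11.45 proximally in mutants. Bone markers were lower distally in 4 of 6 cases, muscle markers in 14 of 16, and epithelial markers were higher in 7 of 12. With the random block 8 members were higher and 5 lower distally, beside 1871 and 1889 of 13850 genes. Without mutant set 3 the count was 3.

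In the mutant maxilla 3 members were higher distally, beside 5.15% of all genes. They were Car12 (0.77 ± 0.217), whose arrays overlapped, Ndufa4l2 (0.61 ± 0.155) and Vldlr (0.46 ± 0.110, adjusted p = 0.0196). With the random block 4 members were higher and 0 lower distally, beside 733 and 868 of 13850 genes. The count was 1 without mutant set 2 or 3 and 1 when all probe sets of a gene were averaged. Epithelial markers were higher distally in 7 of 12 cases. At the mutant distal ends 3 members were higher in the mandible, beside 4.92% of all genes, namely Ndufa4l2 (0.84 ± 0.155), P4ha2 (0.80 ± 0.171) and Hif1a (0.19 ± 0.0538). Muscle markers were lower there in 7 of 16 cases, and the count of members was 5, 1 and 0 without mutant sets 1, 2 and 3.

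At the mutant proximal ends 9 members differed between the jaws, beside 5.69% of all genes. The 5 largest of the 8 higher in the mandible were P4ha2 (1.23 ± 0.171, or 2.35-fold, adjusted p = 0.000248), Plod2 (0.89 ± 0.206, adjusted p = 0.0126), P4ha1 (0.79 ± 0.155, adjusted p = 0.00396), Ndufa4l2 (0.62 ± 0.155) and Pygl (0.54 ± 0.107), and Adm was higher in the maxilla (-0.61 ± 0.175). Plod2 read 11.52, 11.60 and 11.78 in the proximal mandible and 10.88, 10.89 and 10.46 in the proximal maxilla. Hk2, the single enzyme called in a comparison of regions, was 0.42 ± 0.117 higher in the mandible. All 6 bone markers were higher in the same direction, by a median of 2.39. The collagen hydroxylases are used heavily by bone-forming cells as well as under hypoxia, and the part of bone tissue in their values was not tested. With the random block 10 members were higher and 3 lower in the mandible, beside 788 and 995 of 13850 genes. The count was 3 without mutant set 2 and 1 without mutant set 3.

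Genes of the pathway outside the members, from lists drawn up for this account, were read in the average genotype effect beside the same background of 18.3% higher and 15.5% lower. Of 28 other hypoxia-induced genes 10 were higher and 4 lower, with a median of 0.09, and 4 were higher and 2 lower with the random block. Ndrg1, a stress-induced differentiation gene, rose most (0.50 ± 0.0853), with Zfp395 (0.33 ± 0.0819) and Ppp1r3c, a glycogen targeting subunit (0.26 ± 0.0450), next. Cited1, a transcriptional coregulator, fell by 0.91 on the log2 scale (adjusted p = 4.84e-07, and 0.0281 with 1 value per set), and Pgf, placental growth factor (-0.32 ± 0.0714), and Anln (-0.20 ± 0.0376) were lower too. Of 16 other HIF regulators 6 were higher and 5 lower, or 3 and 1 with the random block. The higher ones were led by Hif3a, an inhibitory alpha subunit (0.38 ± 0.0616), Hif1an, the asparagine hydroxylase that restrains HIF (0.27 ± 0.0972), and Cited2, which competes with HIF for its coactivators (0.26 ± 0.0383). The 5 that were lower were led by Hspa9 (-0.18), Elob (-0.18) and Siah1a (-0.16). Of 26 other glycolysis and pyruvate genes 6 were higher and 1 lower, or 3 and 0 with the random block. Pdk4, another inhibitor of pyruvate dehydrogenase, was 0.57 ± 0.0883 higher, the lactate exporter Slc16a3 0.30 ± 0.0908 and Pgm1 0.27 ± 0.0516, while Pdhb, a subunit of pyruvate dehydrogenase, was -0.10 ± 0.0297.

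Genes of oxidative metabolism lay on the other side of 0. Of 25 respiratory chain genes 15 were lower and 1 higher, and 10 were lower with the random block, with a median of -0.10. Ndufa8 (-0.26 ± 0.0276), Ndufa4, the paralog of Ndufa4l2 (-0.24 ± 0.0410), and Uqcrc1 (-0.21 ± 0.0268) were the largest, and Uqcrc2 was the gene higher (0.09 ± 0.0252). Of 16 citrate cycle genes 7 were lower and 1 higher, and 5 were lower with the random block, with a median of -0.11. Idh3a (-0.35 ± 0.0612), Sdhb (-0.30 ± 0.0491) and Sdhd (-0.18 ± 0.0529) led, and Suclg2 was higher (0.15). These 3 lower genes differed most in the sets with the raised Gapdh difference. Mutant sets 1, 2 and 3 gave -0.46, -0.13 and -0.48 for Idh3a, -0.40, -0.12 and -0.39 for Sdhb and -0.28, 0.016 and -0.28 for Sdhd, which was not called with the random block (adjusted p = 0.0791). The mean over the 25 respiratory chain genes was 12.73 to 12.81 on the control arrays and 12.61 to 12.71 on the mutant arrays, so the genotypes did not overlap. The mean over the 16 citrate cycle genes was 12.03 to 12.10 on the control arrays and 11.88 to 12.04 on the mutant arrays, which overlap. Over each list the median differences of the 3 mutant sets were -0.13, -0.09 and -0.11 for the respiratory chain and -0.11, -0.08 and -0.08 for the citrate cycle. With 1 value per set none of these genes passed. Of 13 genes of the unfolded protein and amino acid stress response, which also respond to low oxygen, 5 were lower, led by Herpud1 (-0.20 ± 0.0444), and Vldlr, a member itself, was the gene higher.

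**Figure D5:**
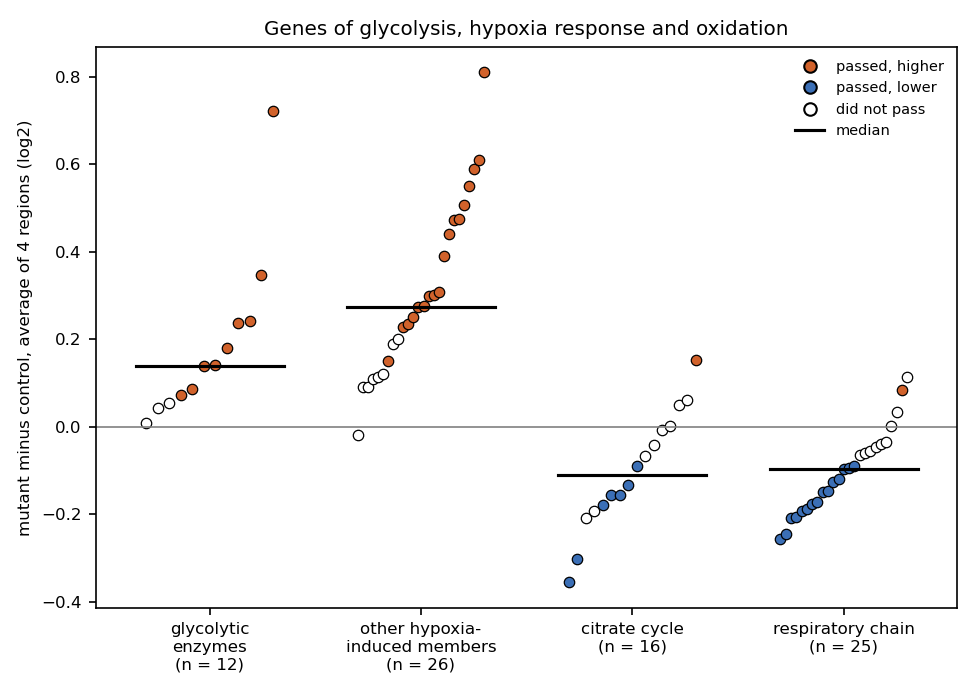
Average mutant minus control difference (log2, y axis) of single genes in 4 groups, with orange for genes called higher, blue for genes called lower, white for genes that did not pass and a bar at the median. Medians are 0.14 for 12 glycolytic enzymes, 0.27 for 26 other hypoxia-induced members, -0.11 for 16 citrate cycle genes and -0.10 for 25 respiratory chain genes.

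Some markers of other cell types moved as far as the members in the average genotype effect, and their part in the members' values was not tested. Of 12 macrophage markers 4 were lower, led by the lysozyme gene Lyz2 (-1.11 ± 0.0945, adjusted p = 3.57e-07, and 0.0282 with 1 value per set). Of 8 red blood cell markers 3 were lower, led by the globin gene Hba-a2 (-0.79 ± 0.162). Of 14 endothelial markers 3 were higher, led by Plvap (0.37 ± 0.0606), and 5 lower, led by Cldn5 (-0.42 ± 0.0667). Of 6 bone markers Dmp1, a matrix gene of osteocytes, was higher (1.00 ± 0.161), and 2 of 12 epithelial markers were higher. With the random block 1 macrophage marker and 0 red blood cell markers were lower. Of the endothelial markers 1 was higher and 2 were lower with that block. Dmp1 stayed higher, and 0 epithelial markers did. Of 4 sex-linked genes 3 were higher, with or without the random block, and the median was 3.26. None of 16 skeletal muscle, 12 cartilage or 11 neuronal markers passed, although the cartilage median was 0.38. That median was 1.197 in mutant set 1, -0.09 in set 2 and 0.17 in set 3. Of 8 pericyte and smooth muscle genes, a list chosen after the values were seen, 5 were higher and 1 was lower, with a median of 0.33. The higher ones included Pdgfrb (0.30 ± 0.0382) and the potassium channel gene Kcnj8 (0.46 ± 0.132). With the random block 2 of the list were higher and 0 lower, and Kcnj8 was not called (adjusted p = 0.177). Ndufa4l2 is known in pericytes as well as under hypoxia, and the part of pericytes in the Ndufa4l2 value was not tested.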

How the data were processed

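The members and lists were chosen with earlier results of these data known. The authors deposited log2 values per probe set of a mouse Affymetrix array, and the submitters' processing notes name RMA with no version. Per the labels, an RNeasy kit gave the RNA, which was labelled as biotin cRNA. The sources used here do not give which arrays were normalized together. Of 45101 probe sets 34958 name 1 gene, 932 several and 9211 none, by GEO's platform annotation. The identifiers of 34754 matched RefSeq genes, and 0 symbols changed. No 2 arrays were identical. Each of 18194 genes was represented by its brightest single-gene probe set, and 13850 were kept that lay above the 40th percentile of their array on at least 3 arrays.

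limma 3.58.1 (R 4.3.3, lmFit and eBayes defaults) fitted 8 group means to the 24 arrays together, leaving 16 residual degrees of freedom. A gene was called where its p-value, adjusted by Benjamini-Hochberg over all genes kept, was under 0.05. Errors after ± are standard errors of the log2 difference unless named otherwise. The set was also fitted as a random block (duplicateCorrelation, statmod 1.5.0), and set means were fitted 3 against 3 with 4 residual degrees of freedom. Same-numbered arrays deviated together (every correlation over 0.1 across genes) in the mutant comparisons and in all control comparisons but the proximal jaws. This comes from the values and not the labels. The differences, errors and counts of these comparisons use no pairing unless a block is named. Pairing was run as an alternative. On simulated data with arrays as replicates, the average effect recovered 92% of genes changed by log2 0.5 and the distal mandible 56%. The simulated arrays varied independently, without the shared deviation of sets seen in the data (correlation 0.40). These shares therefore do not give the recovery in the real sets. The array number limits the precision of each value.

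Named genes are the 10 members with the largest average difference and any below 0, up to 5 called members each way in the other comparisons, all paralog pairs, subgroup examples and up to 3 called genes each way of a pathway list. Further called members complete a count of at most 9. Promoters came from RefSeq (GRCm38.p6). No sequence of a protein was used here.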

Additional observations from a re-analysis of the deposited data

How the results depend on the processing

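Of the 29 members called higher on average, Pygl and Vldlr were called under all 14 alternatives. In numbers of members called, the average effect gave 15 with the set as a random replicate block and 2 with 1 value per set. With the random block the distal mandible gave 3, the control distal jaws 10, the control proximal jaws 4, the control maxilla ends 7 and the mutant distal jaws 5. With the number as a fixed block, which pairs same-numbered arrays, the control distal jaws gave 11 and the control maxilla ends 9. The mean of all probe sets gave 2 in the distal maxilla and 1 for the mutant maxilla ends, and no filter gave 5 in the distal maxilla. The gap between member classes was 0.068 with the mean of all probe sets, 0.207 with the Gapdh covariate and 0.183 with mutant set 2 alone.

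Leaving out each set in turn, the average count ran from 17 to 31, and the regions from 0 to 14 in the distal mandible, 2 to 11 in the proximal mandible, 1 to 20 in the distal maxilla and 1 to 14 in the proximal maxilla. Counts ran from 2 to 4 for the control distal jaws, 0 throughout for the control proximal jaws, 2 to 3 for the control mandible ends and 1 to 2 for the control maxilla ends. In mutants they ran from 0 to 5 for the distal jaws, 1 to 10 for the proximal jaws, 3 to 7 for the mandible ends and 1 to 2 for the maxilla ends. Average differences ran from -0.074 to 0.21 for Pfkm, -0.079 to 0.093 for Pkm, -0.096 to 0.066 for Slc2a3 and -0.022 to 0.20 for P4ha1. Fewer arrays leave fewer degrees of freedom.

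Average differences changed sign with the mean of all probe sets for Hk1 (-0.077), Pfkp (-0.10), Egln1 (-0.0043), Hif1a (-0.018), P4ha1 (-0.31) and Mxi1 (-0.088), whose probe sets disagree. They did so with the Gapdh covariate for Hk1 (-0.018), Pfkl (-0.0034), Pfkm (-0.25), Aldoa (-0.0056), Pkm (-0.12), Pfkfb4 (-0.054), Car9 (-0.036), Car12 (-0.017), P4ha1 (-0.071), P4ha2 (-0.029) and Gys1 (-0.043). With mutant set 2 alone they did so for Pfkl (-0.041), Pfkm (-0.30), Aldoa (-0.012), Pkm (-0.16), Pfkfb4 (-0.067), Car9 (-0.091), Car12 (-0.027), P4ha1 (-0.12), P4ha2 (-0.065) and Gys1 (-0.028). The cause was not tested. Quantile normalization again, no filter, the 60th percentile filter, either replicate block and 1 value per set reversed no named value.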

Other observations

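Control set 1 and mutant set 1 are the sets in which Xist is low and Y-linked transcripts are high, and they can be set against each other as values with no test. In that comparison the median difference of the members was log2 0.32, mutant minus control, beside 0.04 over all genes. These arrays are part of those behind the average effect, so the values are not separate support for it. The pair differed in the Gapdh difference (-0.03 to 0.05 in control set 1 and 0.25 to 0.65 in mutant set 1), and the median cartilage marker of mutant set 1 stood 1.197 above the control mean; the part of either was not tested. This comparison was chosen after the data were seen.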
